A study of Mus musculus with 12 samples.

Results

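The imprinted Dlk1-Dio3 cluster is a large group of microRNA (miRNA) genes on the distal part of mouse chromosome 12 that are read from the maternal chromosome alone. Its miRNAs lie along long non-coding transcripts (Meg3, Rian and Mirg) between Dlk1, a Notch-related surface protein of fetal tissues, and Dio3, the deiodinase that inactivates thyroid hormone, both of which are expressed from the paternal chromosome. A miRNA is a short RNA that pairs through its seed (bases 2 to 8) with messenger RNAs and lowers their output. The cluster's miRNAs are known for high levels in brain, placenta and embryo. In the adult, neurons are a main site, where several of them take part in the growth of dendrites. Of 44 miRNAs listed for the cluster, 43 had at least 1 probe under their mouse name without a star, and mmu-miR-494 had none. Members were taken by name, with or without an arm suffix, which gave 53 of the 595 mouse miRNA probes on the array. Names below leave out the mouse prefix, so that miR-127 stands for mmu-miR-127, miR-381 for mmu-miR-381 and miR-487b for mmu-miR-487b.

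The values came from 12 two-colour Exiqon miRNA arrays, 1 liver sample each. Male B6C3F1 mice, a cross of C57BL/6 and C3H strains, had a labelled age of 27 to 30 days. They received corn oil (vehicle, 0 mg/kg, n = 6) or benzo(a)pyrene (BaP, 150 mg/kg, n = 6), a polycyclic hydrocarbon that liver enzymes convert into a DNA-binding form, daily for 3 days, and the median liver lobe was taken 4 h after the last dose. Liver RNA was labelled with Hy5 (red) and hybridised beside a Hy3-labelled (green) RNA pool of 10 mouse tissues, the same kind of reference on every array. Every ratio below is liver over pool, on the log2 scale after background correction with an offset of 50 and loess normalization within the array. No array had the dyes exchanged, so each ratio also holds the dye bias of its probe. Whole liver was profiled, and fewer cells of a type cannot be told apart from less RNA per cell.

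The hepatocyte miRNA miR-122 had a vehicle ratio of 3.72 ± 0.15 (SD, n = 6). All 3 hepatocyte markers examined were above background in liver and at least 2-fold over the pool. Of the 48 spots of miR-122 over the 12 arrays, 40 were flagged as outliers by the scanner software. On arrays where all its spots were flagged, the ratio of miR-122 rests on flagged spots, and elsewhere on the unflagged ones. Neither of the neuronal miRNAs miR-124 and miR-9 passed the background rule in liver, and neither muscle marker (miR-1, miR-133a) did. All 4 blood cell markers, all 5 stellate and smooth muscle probes, both arms of the endothelial miR-126 and 2 of 3 bile duct markers were above background in liver, so these samples held RNA of other cells than hepatocytes. Background was judged against the 28 negative control spots of each array. A spot passed when its net signal, the mean intensity minus the local background, was over their median plus 2.6 scaled median absolute deviations, and a probe when at least 3 of its 4 spots passed. A probe is called above background in a channel when this held on at least 3 of the 6 arrays of a group.

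The mature sequences that the results turn on are shown 5′ to 3′ with the seed in capitals, from RefSeq (GRCm38.p6); a mature sequence was matched for 50 of the 53 probes. The first 10 are those above background in liver for which a sequence was matched, in the order of their genes; miR-487b, the eleventh, is named only. The next 3 were above background in the pool and not in liver, and are shown because miR-300 is nearly identical to miR-381 and because miR-379 and miR-541 were among the brightest cluster probes in the pool.
miR-665: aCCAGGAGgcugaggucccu
miR-127: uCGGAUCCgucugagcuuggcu
miR-434-3p: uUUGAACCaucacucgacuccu
miR-329: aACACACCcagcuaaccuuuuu
miR-666-5p: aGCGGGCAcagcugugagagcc
miR-667: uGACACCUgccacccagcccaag
miR-381: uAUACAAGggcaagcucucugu
miR-382: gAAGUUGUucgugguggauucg
miR-668: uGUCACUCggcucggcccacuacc
miR-377: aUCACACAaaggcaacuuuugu
miR-379: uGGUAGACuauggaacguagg
miR-300: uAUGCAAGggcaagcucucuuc
miR-541: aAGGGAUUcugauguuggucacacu
The 50 matched sequences had 50 different seeds, so no 2 of these probes stood for a shared seed family. The seeds of the other 3 cluster probes, miR-487b among them, were not compared. Among other mouse miRNAs in the RefSeq table, miR-362-3p has the seed of miR-329, and no other of the 10 seeds in liver recurred. miR-300 and miR-381 have 22 bases each and differ by 3 substitutions, written as the base of miR-300, its position from the 5′ end and the base of miR-381: G4A, U21G and C22U. They share a run of 16 bases, the longest shared with any other mouse miRNA for either of them.

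The 43 hairpin genes with a probe extend over 180 kb of chromosome 12 (GRCm38.p6, chr12:109563692-109743795, plus strand). They fall into 3 segments along it. The first reaches from Meg3 through Rtl1 (chr12:109563692-109595388) and held 15 probes; its miRNAs miR-127, miR-136, miR-431, miR-433 and miR-434 lie antisense to Rtl1, a retrotransposon-derived gene needed in placenta, whose transcript they direct to cleavage. The second, within Rian, held the 2 probes for miR-341 and miR-370. The last runs from miR-379 to miR-410 (chr12:109709060-109743795) and held 36 probes, with the start of Mirg inside it.

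A smaller share of the cluster's probes than of all mouse probes was above background in liver. Of the 53, 11 were above background in liver, or 20.8%, against 35.6% of all 595 mouse probes and 37.1% of the 542 mouse probes outside the cluster. In the pool, 26 of 53 were above background (49.1%, against 57.3% of all mouse probes). Of those 26, 10 were also above background in liver (38.5%, against 60.7% of the 341 mouse probes in the pool). On no liver array was a signal above background found for 31 of the 53 (58.5%, against 40.7% of all mouse probes). These shares are descriptions; the number of arrays and the threshold limit what they can show.

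The first segment gave 3 probes in liver (miR-665, miR-127 and miR-434-3p) and 8 in the pool of its 15. Of the 2 Rian probes, miR-341 was above background in the pool and neither was in liver. The last segment gave 8 in liver and 17 in the pool of 36. In 10 hairpins both arms were probed under names with an arm suffix. None of these had both arms above background in liver, 2 had both in the pool (miR-369 and miR-434) and 5 had neither arm in either channel. Other hairpins had their second arm probed under a mouse name with a star. With these counted, both arms of miR-382 were above background in liver, the star arm on 4 vehicle and 3 BaP arrays. Both arms of miR-127, miR-136, miR-300, miR-382, miR-411 and miR-433 were above background in the pool.

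**Figure D1:**
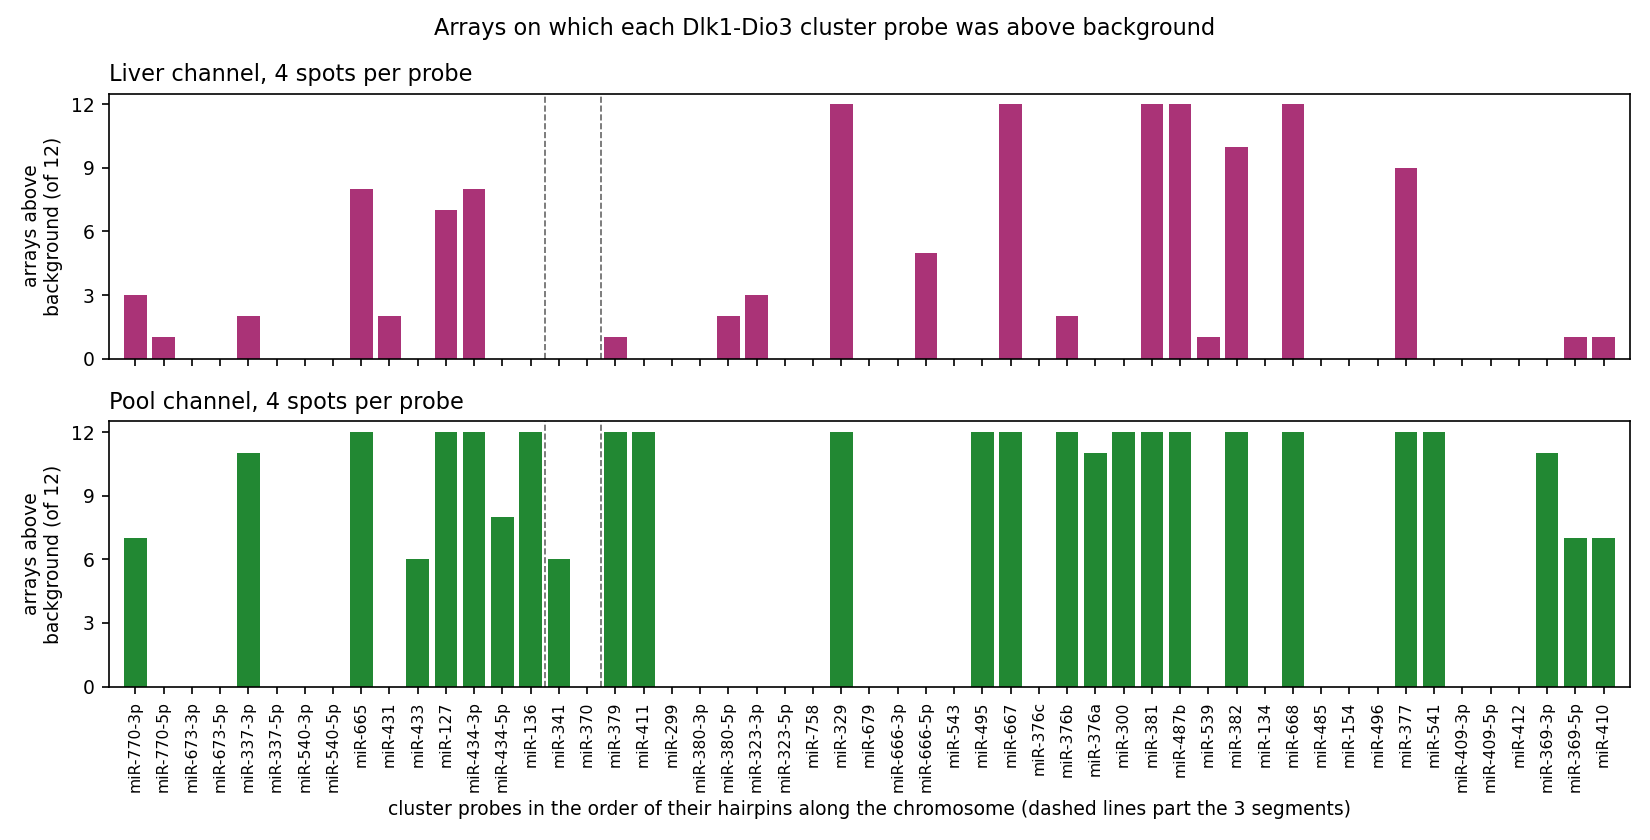
Number of arrays, of 12, on which each of the 53 cluster probes was above background in liver (top) and in the pool (bottom), in the order of the hairpins along the chromosome, with dashed lines between the 3 segments. In liver 5 bars reach all 12 arrays (miR-329, miR-667, miR-381, miR-487b and miR-668), and in the pool 17 do.

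The probes in liver were miR-127, miR-329, miR-377, miR-381, miR-382, miR-434-3p, miR-487b, miR-665, miR-666-5p, miR-667 and miR-668. Of these, 5 were above background on all 12 liver arrays. miR-382 was on 10 arrays, miR-377 on 9, miR-434-3p and miR-665 on 8, miR-127 on 7 and miR-666-5p on 5. The 16 in the pool alone were miR-136, miR-300, miR-337-3p, miR-341, miR-369-3p, miR-369-5p, miR-376a, miR-376b, miR-379, miR-410, miR-411, miR-433, miR-434-5p, miR-495, miR-541 and miR-770-3p. The other 26 were in neither: both arms of miR-323, miR-380, miR-409, miR-540 and miR-673, and miR-134, miR-154, miR-299, miR-337-5p, miR-370, miR-376c, miR-412, miR-431, miR-485, miR-496, miR-539, miR-543, miR-666-3p, miR-679, miR-758 and miR-770-5p.

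The arrays scanned on day 1, vehicle 1 and BaP 1, stood apart in the liver channel. Their background thresholds were 1.92 and 2.89 intensity units, against 16.2 to 28.8 on the other 10, and they had 22 and 17 cluster probes above background against 5 to 13. The share of all mouse probes was also highest there, at 57.3% and 44.9%. On each of the 12 arrays the cluster's share in liver was below that of all mouse probes. Without day 1, 10 cluster probes remained above background in liver; miR-666-5p was the one left out.

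**Figure D2:**
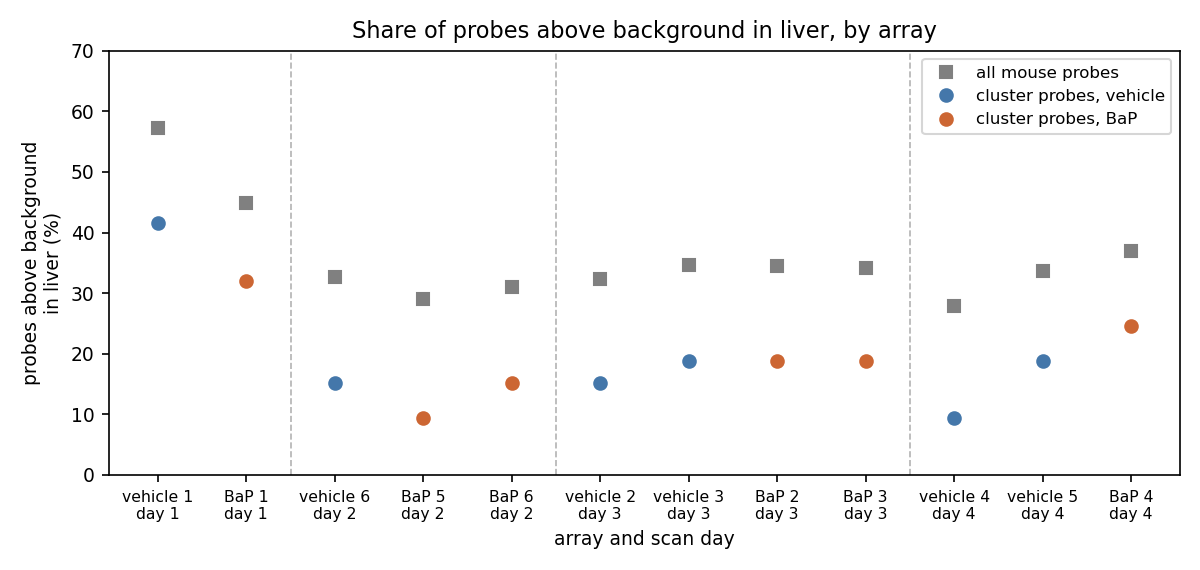
Share of probes above background in liver on each array (y, percent), for all 595 mouse probes (grey squares) and the 53 cluster probes (circles, blue vehicle and orange BaP), with arrays ordered by scan day. The circle lies below the square on all 12 arrays, and the day 1 arrays have the highest shares, 41.5% and 32.1% for the cluster.

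miR-487b had the highest ratio of the 11 and was the only one above 2-fold under all normalizations tried. In vehicle liver its ratio was 2.38, 2.55, 2.51, 2.37, 2.22 and 2.15 on replicates 1 to 6, with a mean of 2.36 ± 0.16 (SD, n = 6), which is 5.14-fold over the pool. In BaP liver it was 2.44, 1.98, 2.35, 2.30, 2.04 and 2.25, with a mean of 2.23 ± 0.18 (SD, n = 6). Every array was high, and the BaP and vehicle ranges overlapped. The net liver signal was 239 to 747 intensity units with a median of 441, the pool signal 122 to 193 with a median of 161, and liver exceeded the pool on 12 of 12 arrays before any normalization. The ratio without normalization within arrays was 1.35 and after median centring 1.50, both still above 2-fold. The gene lies at chr12:109727333-109727414, 511 bases beyond the start of miR-381. In net signal the miR-381 probe was dimmer in liver than in the pool on all 12 arrays. Its normalized ratio had a mean of -0.32 with vehicle and -0.19 with BaP.

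miR-667 was next, with vehicle ratios of 1.93, 1.91, 1.65, 1.84, 1.81 and 1.75 (mean 1.81 ± 0.10, SD, n = 6) and BaP ratios of 2.16, 1.46, 1.56, 1.78, 1.67 and 1.79 (mean 1.74 ± 0.24, SD, n = 6). Its liver signal also exceeded the pool signal on 12 of 12 arrays, with medians of 361 and 235 units. Median centring lowered its vehicle ratio to 0.94 and no normalization to 0.80, below 2-fold.

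miR-668 had vehicle ratios of 1.30, 1.32, 1.02, 0.76, 0.83 and 1.05 (mean 1.05 ± 0.23, SD, n = 6) and BaP ratios of 1.02, 0.93, 0.78, 0.73, 1.15 and 1.14 (mean 0.96 ± 0.18, SD, n = 6). Its ratio passed 2-fold narrowly: the mean was 0.997 without vehicle 1 and 0.992 without vehicle 2. Liver exceeded the pool in net signal on 6 of 12 arrays, and the ratio was 0.08 without normalization and 0.23 after median centring. The 3 probes at least 2-fold higher in vehicle liver, of 11 (27.3%), compare with 11.2% of the 206 mouse probes above background in vehicle liver; without vehicle 1, or without vehicle 2, the cluster's count was 2.

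miR-666-5p had a ratio of 0.40 ± 0.12 with vehicle and 0.35 ± 0.12 with BaP (SD, n = 6 each), above 0 on 12 of 12 arrays. It was above background in liver and not in the pool, but its net signals were alike, with medians of 15.8 units in liver and 19.2 in the pool; the pool's thresholds, from 33.3 to 89.6 units, were higher than those of liver. The BaP 4 array had 0.58 and the other 5 BaP arrays 0.27 to 0.35.

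**Figure D3:**
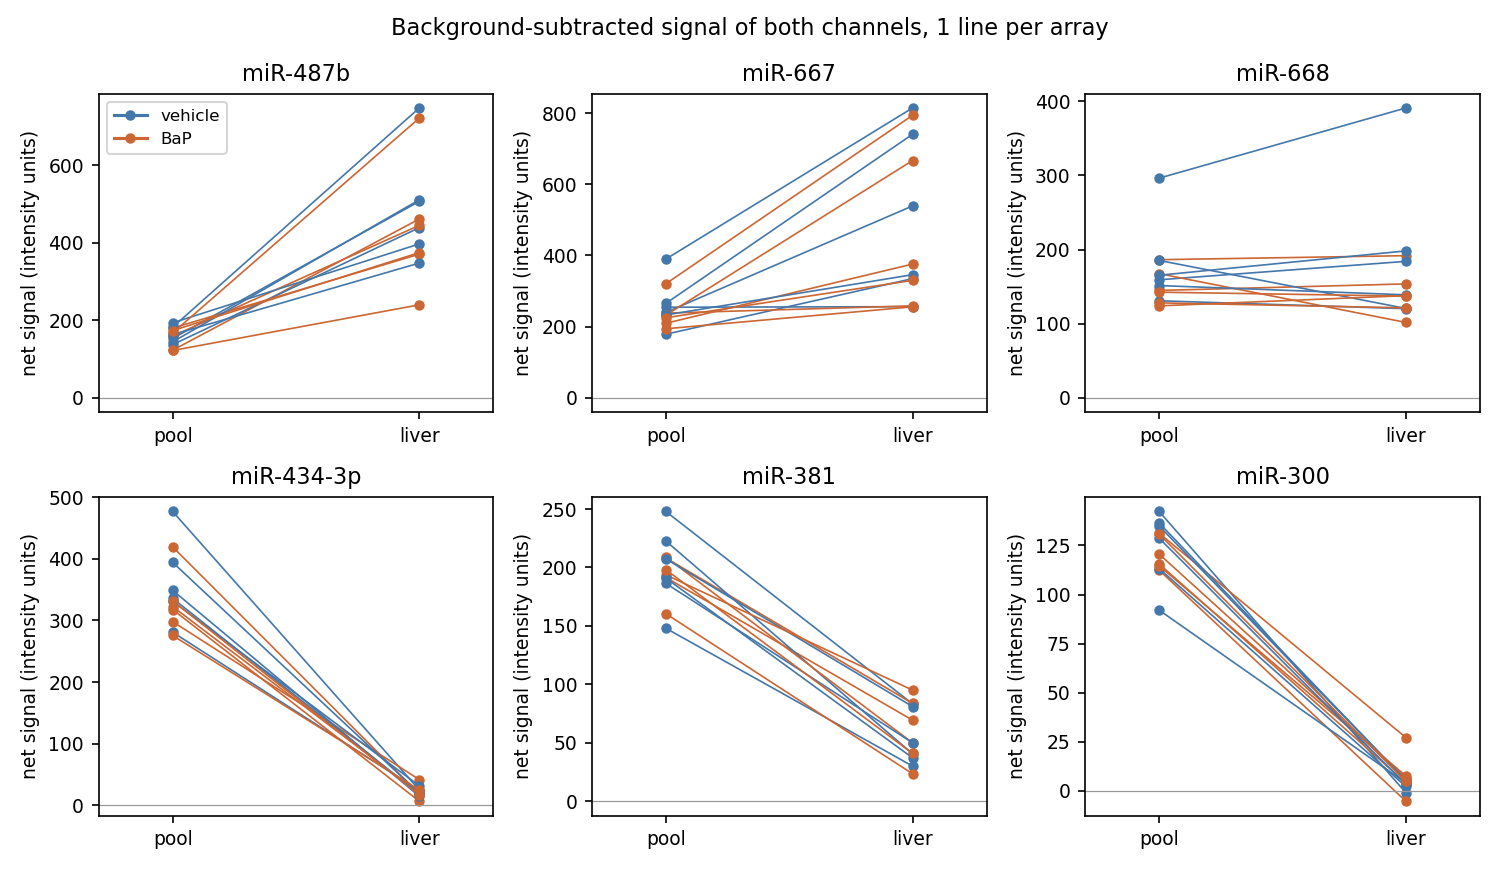
Net signal (mean intensity minus local background, y, in intensity units, each panel with its own scale) of the pool and the liver channel for 6 cluster probes, 1 line per array, vehicle in blue and BaP in orange. All lines rise from pool to liver for miR-487b and miR-667, 6 of 12 rise for miR-668, and all fall for miR-434-3p, miR-381 and miR-300.

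The other probes in liver had normalized ratios level with the pool or below it. In net signal miR-382, miR-377, miR-329 and miR-381 were dimmer in liver than in the pool on all 12 arrays. The medians were 27.8 units in liver and 100 in the pool for miR-382, and 27.5 and 95.3 for miR-377. After median centring, and without normalization, miR-329 and miR-381 were at least 2-fold lower in vehicle liver. miR-382, a miRNA studied in kidney fibrosis models, had a ratio of -0.09 ± 0.14 with vehicle and -0.06 ± 0.08 with BaP (SD, n = 6 each), and its 12 arrays lay on both sides of 0. miR-377, known for its rise in diabetic kidney models, had -0.13 ± 0.05 and -0.06 ± 0.13. Neither difference from the pool was tested. For miR-329, which in neurons is induced by activity and promotes dendrite growth, the vehicle ratios were -0.29, -0.09, -0.29, -0.49, 0.15 and -0.39 and the BaP ratios -0.26, -0.06, -0.16, -0.26, -0.45 and -0.25, so 11 of 12 arrays were below 0. For miR-381 the vehicle ratios were -0.16, -0.39, -0.25, -0.37, -0.31 and -0.42 and the BaP ratios 0.06, -0.14, -0.14, -0.14, -0.44 and -0.36. Here too 11 of 12 arrays were below 0, and the groups overlapped.

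The 3 probes of the Rtl1 segment had the lowest ratios of the 11. miR-434-3p had vehicle ratios of -1.63, -1.13, -1.25, -1.53, -1.45 and -1.52 (mean -1.42 ± 0.19, SD, n = 6) and BaP ratios of -1.43, -1.09, -1.20, -1.43, -1.49 and -1.38 (mean -1.34 ± 0.16, SD, n = 6). All 12 arrays were more than 2-fold lower in liver, with a median net signal of 19.4 units there and 331 in the pool. miR-127, the most studied of the Rtl1 antisense miRNAs, had a mean of -0.64 ± 0.13 with vehicle and -0.58 ± 0.14 with BaP (SD, n = 6 each). miR-665 had -0.59 ± 0.12 and -0.51 ± 0.04. Both were below 0 on 12 of 12 arrays. The liver signals of all 3 probes lay close to the thresholds, with medians of 23.9 units for miR-127, 19.5 for miR-665 and 19.4 for miR-434-3p.

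**Figure D4:**
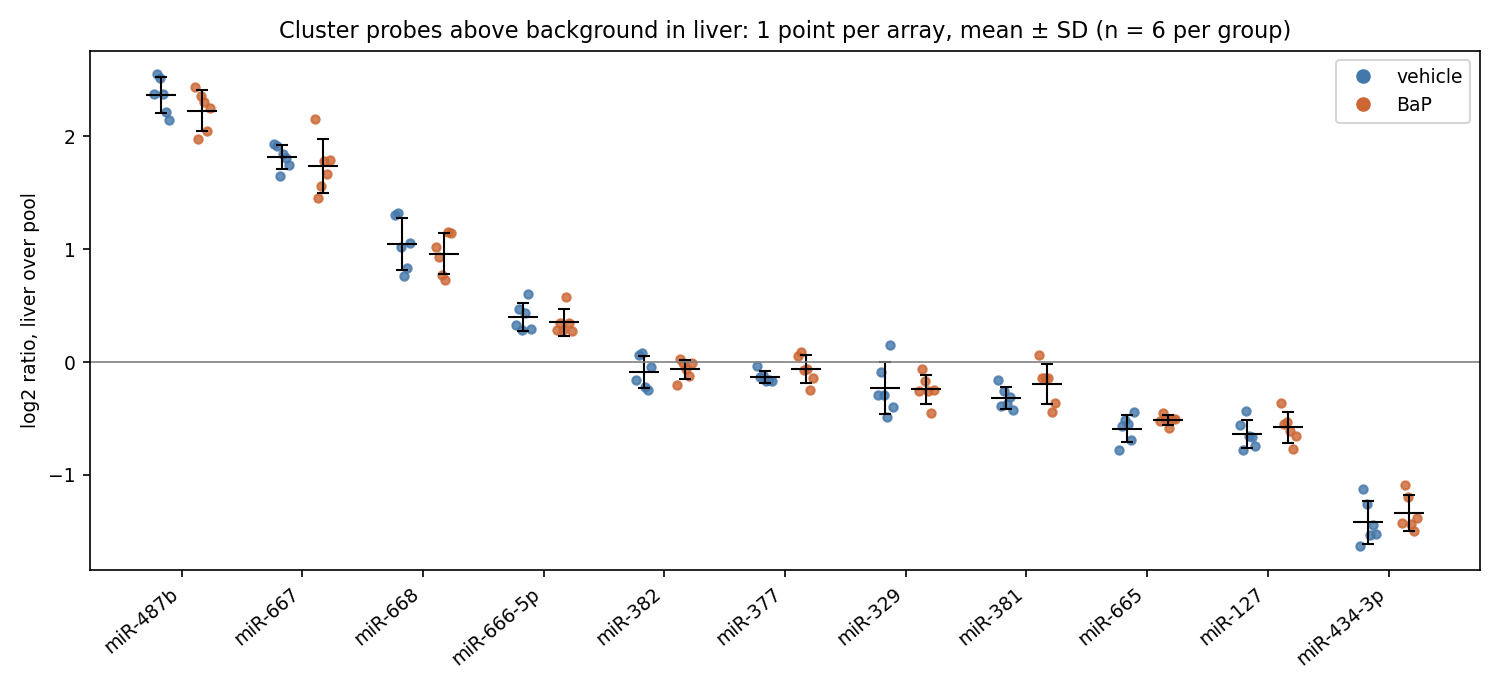
Log2 ratio of liver over pool (y) for the 11 cluster probes above background in liver, 1 point per array, vehicle blue and BaP orange, with the mean and SD of each group (n = 6) in black. miR-487b, miR-667 and miR-668 sit near or above a ratio of 1, miR-434-3p below -1, and the groups overlap for every probe.

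For probes in the pool alone, the liver level is only a bound. Where no liver array of a group was above background, the fold was taken against, on each array, the higher of the dim probe's own level and the lowest level of a liver probe that was above background. On this footing miR-541 was at least 1.88-fold lower in vehicle and 1.73-fold lower in BaP liver than in the pool, with pool signals of 128 to 188 units and liver signals of -14.6 to 17.7. miR-136, an Rtl1 antisense miRNA, was at least 1.67-fold and 1.48-fold lower in the 2 groups. miR-300 was at least 1.59-fold and 1.53-fold lower, and miR-411 at least 1.58-fold and 1.50-fold. miR-379, the first miRNA of the last segment, was above background on 1 vehicle array and on no BaP array, where it was at least 1.56-fold lower; its pool signal was 113 to 170 units. For miR-376a, miR-495, miR-369-3p, miR-434-5p and miR-433 the bounds in vehicle liver ran from 1.03-fold to 1.33-fold. The pool signal of these probes limits the bound.

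Of the 26 probes above background in the pool, 22 had a vehicle ratio below 0 (84.6%, against 250 of the 341 mouse probes in the pool, 73.3%), and 2 were at least 2-fold lower in vehicle liver (miR-434-3p and miR-541, 7.69%), against 19.6% of the 341. The ratio of miR-541, -1.09, rests on a liver signal below the threshold, and its bound is under 2-fold. The median vehicle ratio over the 26 was -0.39, against -0.25 over the 341. The offset pulls the ratios of dim probes towards 0, and the comparison of these shares depended on it: with an offset of 10 the share at least 2-fold lower was 42.3% in the cluster and 28.2% of the 341. With the scanner's processed signals the shares were 50.0% and 40.2%, after median centring 42.3% and 37.2%, and without normalization 46.2% and 44.0%. The cluster's share was thus below that of all mouse probes with the main setting and above it under these 4 others. It stayed below with loess on spots above background (7.69% against 17.6%) and with flagged spots kept (7.69% against 19.1%). The same held with each vehicle array left out (7.69% against 18.8% to 19.6%).

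miR-300 and miR-381, which share a run of bases, were both above background in the pool on all 12 arrays. The miR-381 probe was also above background in liver on 12 of 12 arrays, with a median net signal of 50.0 units there and 196 in the pool. The miR-300 probe was above background on no liver array, with a median of 4.51 units there and 125 in the pool. The brightness of different probes cannot be compared, so these values set each probe only against its own pool signal. The probe for the human form of miR-300 was above background in liver on all 12 arrays with a vehicle ratio of -0.24, and the miR-300 star arm was too, at 0.17. Whether the human-form probe binds another RNA of the mouse liver was not tested.

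Base composition was set beside these values, without miR-487b, for which no sequence was matched. The 10 liver sequences that were matched had a GC content of 36.4% to 68.2% with a median of 54.5%, against a median of 50.0% over all 50. The 3 of them above the pool (miR-667, miR-668 and miR-666-5p) had 65.2% to 68.2%, the 7 below it 36.4% to 65.0%. Its part in the ratios was not tested.

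Of 13 star-arm probes with a mouse name, 5 were above background in liver and 8 in the pool. Of all 595 mouse probes, 35.6% were so in liver and 57.3% in the pool. Of the star arms, miR-433 star, at a vehicle ratio of 1.20, was at least 2-fold over the pool after normalization. Its net signals were alike, with medians of 123 units in liver and 116 in the pool. The main arm of miR-433 was not above background in liver. Of 25 probes with only a human or rat name, 4 were in liver. Among them the human miR-665 probe had a vehicle ratio of 0.95, and 43 of its 48 spots over the 12 arrays were flagged as outliers by the scanner software. None of 4 other cluster miRNAs (miR-453, miR-544, miR-1193, miR-1197) was above background in either channel. Of 12 brain miRNA probes chosen for comparison, all were in the pool and 1 in liver. That 1 was miR-129-3p, whose vehicle ratio varied widely between arrays (0.50 ± 1.03, SD, n = 6). Its net liver signal ran from 23.9 to 609 units with a median of 45.2.

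Treatment with BaP was then compared with vehicle, to ask whether a short exposure changed the cluster's levels in liver. None of the 11 cluster probes passed an adjusted p of 0.05 in limma with Benjamini-Hochberg adjustment over all 212 mouse probes tested. The background share was 0%, with 0 of 212 called, 2 of 212 at an unadjusted p under 0.05 in limma and 3 of 212 in the permutation test; no cluster probe was among either. The smallest limma adjusted p in the cluster was 0.992. Differences ran from -0.14 to 0.12 on the log2 ratio scale, 6 above 0 and 5 below, with a median of 0.03 against 0.02 over all 212; among the 212, 59.4% were above 0. The groups overlapped for all 11, as for all 212.

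miR-487b had the most negative difference, -0.14 (95% interval -0.34 to 0.07, limma), and was below the vehicle mean on 5 of 6 BaP arrays. Its two-sided exact permutation p was 0.197, from all 924 regroupings of the 12 arrays, which allow no p below 0.00216. Within scan days the difference was 0.06, 0.00, -0.36 and 0.00 on days 1 to 4, so day 3 alone, with 2 arrays of each group, was below 0. miR-381 had the most positive difference, 0.12 (95% interval -0.06 to 0.30), with within-day values of 0.21, 0.02, 0.18 and 0.20. Its two-sided exact permutation p was 0.171, the smallest of the 11.

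miR-668 and miR-667, the other probes with a mean vehicle ratio above 1, had differences of -0.09 (-0.33 to 0.15) and -0.08 (-0.30 to 0.14). For both the sign varied between scan days: miR-667 was 0.23 higher with BaP on day 1 and -0.27 on day 3. For miR-665 all 6 BaP arrays were above the vehicle mean, with a difference of 0.08 (-0.05 to 0.21); within scan days it was 0.26, -0.07, 0.06 and 0.03 on days 1 to 4. For miR-434-3p and miR-127 the differences were 0.08 (-0.13 to 0.29) and 0.06 (-0.11 to 0.23), each above 0 on all 4 scan days. The remaining differences were 0.07 for miR-377, 0.03 for miR-382, -0.01 for miR-329 and -0.05 for miR-666-5p.

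The intervals show what these arrays could have missed. The limit farthest from 0 was the lower one of miR-487b. All 11 intervals lay within 1.26-fold in either direction, on the scale of signal plus the offset. For dim probes that scale compresses change: a doubling of the liver RNA of miR-666-5p would have shown as 1.27-fold, of miR-665 as 1.29-fold, of miR-127 as 1.38-fold and of miR-487b as 1.90-fold. Shifts of that size lay above the upper bound of the interval for each of these 4 probes. Without any filter on dim probes, all 53 cluster probes were tested among the 595 mouse probes. In the cluster 35 were higher and 18 lower with BaP, where 61.2% of all 595 were higher. Of the 595, 0 passed, and the smallest limma adjusted p in the cluster was 0.987.

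**Figure D5:**
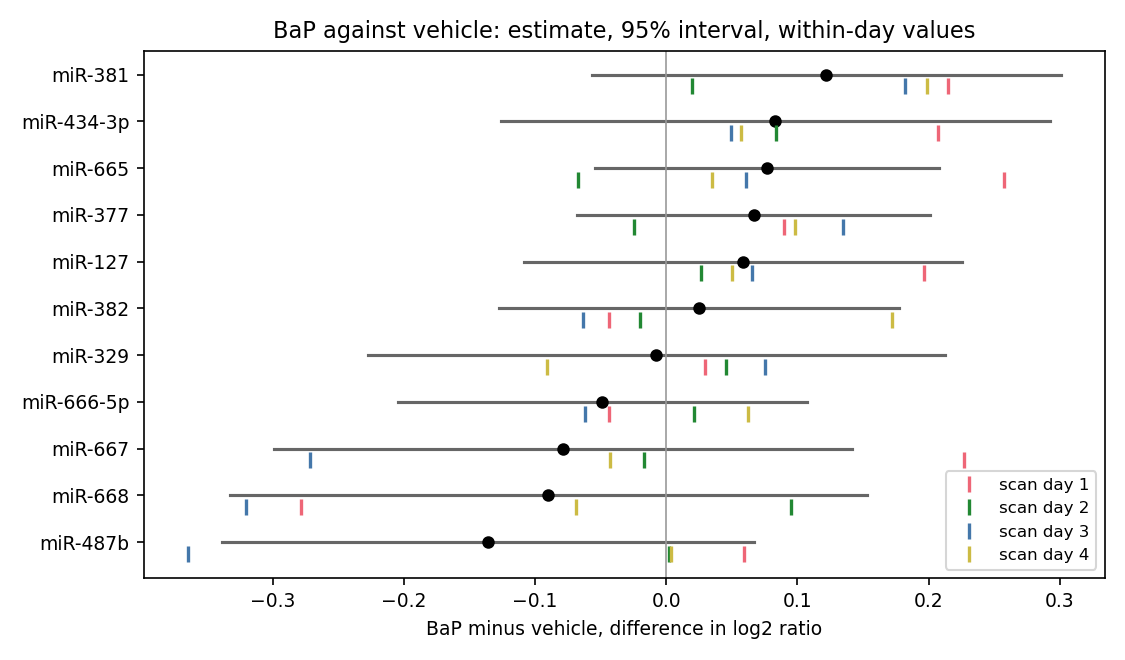
Difference in log2 ratio, BaP minus vehicle (x), for the 11 cluster probes above background in liver: estimate (point), 95% limma interval (line) and the differences within each of the 4 scan days (coloured ticks). Every interval crosses 0, and the estimates run from -0.14 for miR-487b to 0.12 for miR-381.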

How the data were processed

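For 12 arrays the authors deposited linear spot intensities, extracted with Agilent Feature Extraction 9.5.3.1 according to the submitters' processing notes. Mean and local background intensities are not normalized. Per the file headers, the processed intensities had background and dye corrections by that software, and the deposited log10 ratios are red over green of these. The authors' deposited value table holds log2 values of pool over liver for 248 probes; its normalization and centring are unknown (column medians -0.09 to -0.0003), and scale and direction were found by setting it against the ratios (r 0.938 to 0.969 across probes, sign turned). Each array had 8720 spots and 4 per probe. The software flagged every spot as well above background, so negative controls set the threshold, a choice made after the files were seen. Background was corrected by normexp (offset 50) and ratios were loess-normalized (limma 3.58.1, R 4.3.3), with controls and outlier-flagged spots (7.12% of all) at weight 0. Spots were averaged without flagged ones, except that all were used where every spot of a probe on an array was flagged. The 212 mouse probes that passed the background rule in liver on 3 or more of a group's arrays went through limma's lmFit and eBayes, fitted on both groups, adjusted by Benjamini-Hochberg, and by a two-sided exact permutation test. The fit was tested on simulated data. Python 3.11.15 with matplotlib 3.10.9 drew the figures.

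Groups came from the labels; replicate numbers follow accession order and pair nothing. The labels do not tie arrays to animals, so that p-values reflect only the spread among these samples, which may be partly technical. Scan days were read from the file headers. The members, the lists, the rule for named probes (every tested probe, miR-487b and the 10 brightest in the pool with values; other members by name) and the tests were chosen with earlier results of these data known. The arm of an unstarred name was taken from its current name; sequences and coordinates are RefSeq's. Alternatives concerned the background correction, normalization, filters, threshold, scan day and each replicate.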

Additional observations from a re-analysis of the deposited data

Results flagged for a closer look

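Of 26 groups of 6 arrays examined, 1 held an array far from the others: the log2 ratio of miR-666-5p on BaP 4 was 0.58, and the other 5 BaP arrays had 0.27 to 0.35. The gap to the nearest array was 0.757 of the group's range, above Dixon's critical value at the 95% level for 6 samples. Chance flags about 1 in 20 groups.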

How the results depend on the processing

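No cluster probe passed the threshold for BaP against vehicle under any setting tried, including the authors' value table, which holds 3 of the 11, and each array left out in turn. The smallest adjusted p was 0.572, for miR-381 with scan day as a block. The detection counts depended on the rule: at the 95th percentile of viral probes 4 cluster probes were above background in liver (miR-487b, miR-668, miR-329 and miR-667) and 16 in the pool (117 and 226 of all 595 mouse probes), asking for all 12 arrays gave 5 and 17 (154 and 228), and asking for at least 1 array gave 22 in liver (353); leaving out an array gave 10 to 11 in liver and 26 in the pool. The count at least 2-fold lower in vehicle liver was 13 with the scanner's processed signals and 11 with an offset of 10. It was 11 after median centring and 12 without normalization. All mouse probes gave 137, 96, 127 and 150 of 341, so that the cluster's share was above theirs under these settings. It was below theirs with the main setting, with loess on spots above background, with flagged spots kept and with each vehicle array left out. The count at least 2-fold higher was 4 with processed signals and 3 with an offset of 10 (32 and 32 of all 206). It was 1 after median centring and 1 without normalization (13 and 10 of all 206). With a vehicle array left out it was 2 to 3. The vehicle ratio of miR-487b was 2.55, 2.67, 1.50 and 1.35 under those 4 settings and 2.33 to 2.41 with an array left out. Some BaP differences near 0 changed sign. miR-382 was -0.011 with processed signals and -0.016 and -0.061 in the liver channel alone, scaled by the 75th percentile of probes detected on all arrays and of all mouse probes. miR-329 was 0.068 after median centring, 0.011 with loess on spots above background, 0.056 with flagged spots kept, 0.040 in the quantile-normalized liver channel, 0.0089 with the 75th percentile of detected probes and 0.021 with scan day as a block. miR-668 was 0.098 with processed signals and 0.011 after median centring, which gave 0.019 for miR-667. miR-434-3p was -0.036 in the quantile-normalized liver channel and -0.0024 with the 75th percentile of all probes; miR-666-5p was 0.041 with that of detected probes. With arrays left out, miR-329 ran from -0.058 to 0.069 and miR-382 from -0.0067 to 0.058. The cause of these changes was not tested. The signal over background limits the dim probes. Title numbers of the 2 groups run 20 apart in 6 pairs, which the labels do not call a pairing. With them as a replicate block, chosen after the data were seen, 0 of the 212 probes passed, 5 at an unadjusted p under 0.05 (smallest limma adjusted p 0.345, 0.952 in the cluster); paired arrays' deviations correlated at -0.08 to 0.74, and 3 of 6 vehicle arrays correlated best with their own number.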
